A study of Homo sapiens with 5 samples.

Results

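The genes described here build the machinery that moves cargo between the endoplasmic reticulum (ER), the Golgi and endosomes: the COPI and COPII coats, the tethers that hold incoming vesicles, and the retromer and ESCRT complexes that sort cargo on endosomes. They were taken by name from a table of ribosome footprint counts, as every gene of the COPI and COPII coat families, SEC22, TRAPPC, COG1 to COG8, GOLGA, VPS, SNX and CHMP. The names gave 151 of 17297 listed genes, and 129 of them had enough counts to be tested. The study sequenced ribosome-protected fragments from HCT116, a human colorectal carcinoma cell line, in 3 libraries labelled MUT and 2 labelled WT. MUT cells are clones made homozygous for the N106S substitution in eIF6 by CRISPR/Cas9 editing, and WT cells are the unedited line. How many clones went into the MUT libraries, and whether each library had its own culture, is not in the labels, so p-values measure the spread between libraries, which may be technical. Cells of both groups were grown to 60 to 70% density with no treatment named, their extract was digested with micrococcal nuclease, and fragments of 25 to 35 nucleotides were taken from single 80S ribosomes.

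COPII coats (inner SEC23 and SEC24, outer SEC13 and SEC31) bud vesicles from ER exit sites, and COPI, a complex of coatomer subunits, carries cargo back from the Golgi to the ER and between Golgi cisternae. Tethers such as TRAPP, COG, the golgins, GARP and HOPS catch vesicles at the Golgi, endosome and lysosome before fusion. On endosomes, retromer and sorting nexins retrieve membrane proteins for reuse, whereas ESCRT complexes sort ubiquitinated proteins inward for lysosomal degradation. The edited factor eIF6 binds the large ribosomal subunit and keeps it from joining the small one.

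A footprint count reflects both the amount of an mRNA and the ribosomes on each mRNA, which cannot be told apart here, and all values are relative to the other genes in a library. Library totals ran from 3076137 to 3821176 counts in MUT and were 2095217 and 3128144 in WT, and levels are given as CPM, the count scaled to a fixed library size. EIF6 itself averaged 157 ± 10.7 CPM in MUT and 178 ± 9.16 CPM in WT (SD, n = 3 and 2), a log2 fold change of -0.17 (SE 0.0971, adjusted p = 0.215). Of 8 colon epithelial marker genes, KRT8 and KRT19 rose in MUT (log2 fold changes of 0.37 and 0.29), EPCAM and CDH1 fell (log2 fold changes of -0.50 and -0.90), and VIL1 had 0, 0 and 0 counts in MUT and 0 and 1 in WT. Summed leukocyte, endothelial and fibroblast marker counts stayed between 0 and 34 in each of the 3 MUT and 2 WT libraries. The part of these markers in the results was not tested. A gene passed the test when its adjusted p (edgeR's quasi-likelihood test, Benjamini-Hochberg adjustment over 11991 tested genes) was under 0.05.

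Promoter sequences were read from RefSeq (GRCh38.p14) for the 102 tested members that have one in the table, 250 bases upstream of the transcript start, and 7 motifs were searched on both strands. The unfolded-protein-response element TGACGTGG, the sequence bound by XBP1 and ATF6, lay in 6 members (5.88%) and in 0.75% of the 9868 tested genes with a promoter. The lysosomal-gene motif TCACGTGA, bound by TFEB, lay in 3 members (2.94%) and in 1.79% of tested genes. These windows are shown because the 2 motifs belong to regulators of ER and lysosomal genes. Those of GOLGA1, SEC24A and TRAPPC2L lie within the gene's annotated span, upstream of an internal transcript start. Capitals mark the motif, read as TGACGTGG or its reverse complement in the first 6 and as TCACGTGA in the last 3, and each window is written 5′ to 3′ on the gene's strand.
COPB1, chr11:14499826-14499885, minus strand: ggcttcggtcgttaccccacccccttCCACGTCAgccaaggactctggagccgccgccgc
COPB2, chr3:139389810-139389869, minus strand: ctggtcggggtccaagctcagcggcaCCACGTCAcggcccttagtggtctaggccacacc
GOLGA1, chr9:124941233-124941292, minus strand: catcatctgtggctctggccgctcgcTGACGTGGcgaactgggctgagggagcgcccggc
GOLGA5, chr14:92794100-92794159, plus strand: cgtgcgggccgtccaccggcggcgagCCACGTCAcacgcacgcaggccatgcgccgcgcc
SEC24A, chr5:134648580-134648639, plus strand: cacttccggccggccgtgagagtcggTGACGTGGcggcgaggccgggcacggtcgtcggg
SNX21, chr20:45833592-45833651, plus strand: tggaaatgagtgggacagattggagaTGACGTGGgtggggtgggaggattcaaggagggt
CHMP4A, chr14:24213570-24213629, minus strand: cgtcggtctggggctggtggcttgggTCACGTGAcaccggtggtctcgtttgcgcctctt
TRAPPC2L, chr16:88857089-88857126, plus strand: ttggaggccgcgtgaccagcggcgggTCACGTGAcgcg
VPS11, chr11:119067757-119067816, plus strand: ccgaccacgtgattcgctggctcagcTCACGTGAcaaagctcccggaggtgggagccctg

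Among the 6 genes with TGACGTGG, SNX21 passed the test (log2 fold change 0.69), while COPB1, COPB2, SEC24A, GOLGA1 and GOLGA5 did not (log2 fold changes of 0.02, 0.26, 0.21, -0.20 and -0.25). Among the 3 with TCACGTGA, VPS11 passed (0.52), and CHMP4A and TRAPPC2L did not (-0.20 and -0.25). The other motifs searched were CCGGAAG, the ETS-family GABPA motif, found in 33 members (32.4%) and 16.8% of tested genes; TGACGTCA, the CREB element, in 5 (4.90%) and 3.03%; the palindromic NRF1 motif in 4 (3.92%) and 2.07%; the full ER stress element ERSE in 0 members and 0.142%; and the long form of the YY1 motif in 0 members and 0.436%. No match says only that these letters are absent from this window. The motifs are matches of letters and no binding was measured.

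In the fit over all genes, 14 of the 129 tested members rose in MUT and 7 fell, 16.3% in all, against 22.9% of all tested genes (10.0% higher and 12.9% lower). The share of members that passed was thus below that of all genes. Without MUT replicate 1 the counts were 7 higher and 3 lower. Over all tested genes they were then 721 and 908, against 1203 and 1544 with all libraries. Fewer members, and fewer of all tested genes, passed with either WT library left out, which leaves a single WT library. The members' median log2 fold change was 0.01 and that of all tested genes 0.00. Without WT replicate 1 the members' median was -0.01, and without WT replicate 2 it was 0.07. All MUT libraries lay above all WT libraries for 35 members and below for 26, with overlap for 68, while 25.4% of all tested genes had MUT above and 25.3% had MUT below. Changes were of moderate size: called members ran from a log2 fold change of -0.78 (TRAPPC6A) to 0.85 (GOLGA3), and the lowest fitted value, -1.19 for SNX31, did not pass (adjusted p = 0.181). SNX31 had 6.04, 1.84 and 1.03 CPM in MUT, against 12.5 and 1.96 CPM in WT, and its groups overlapped.

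**Figure D1:**
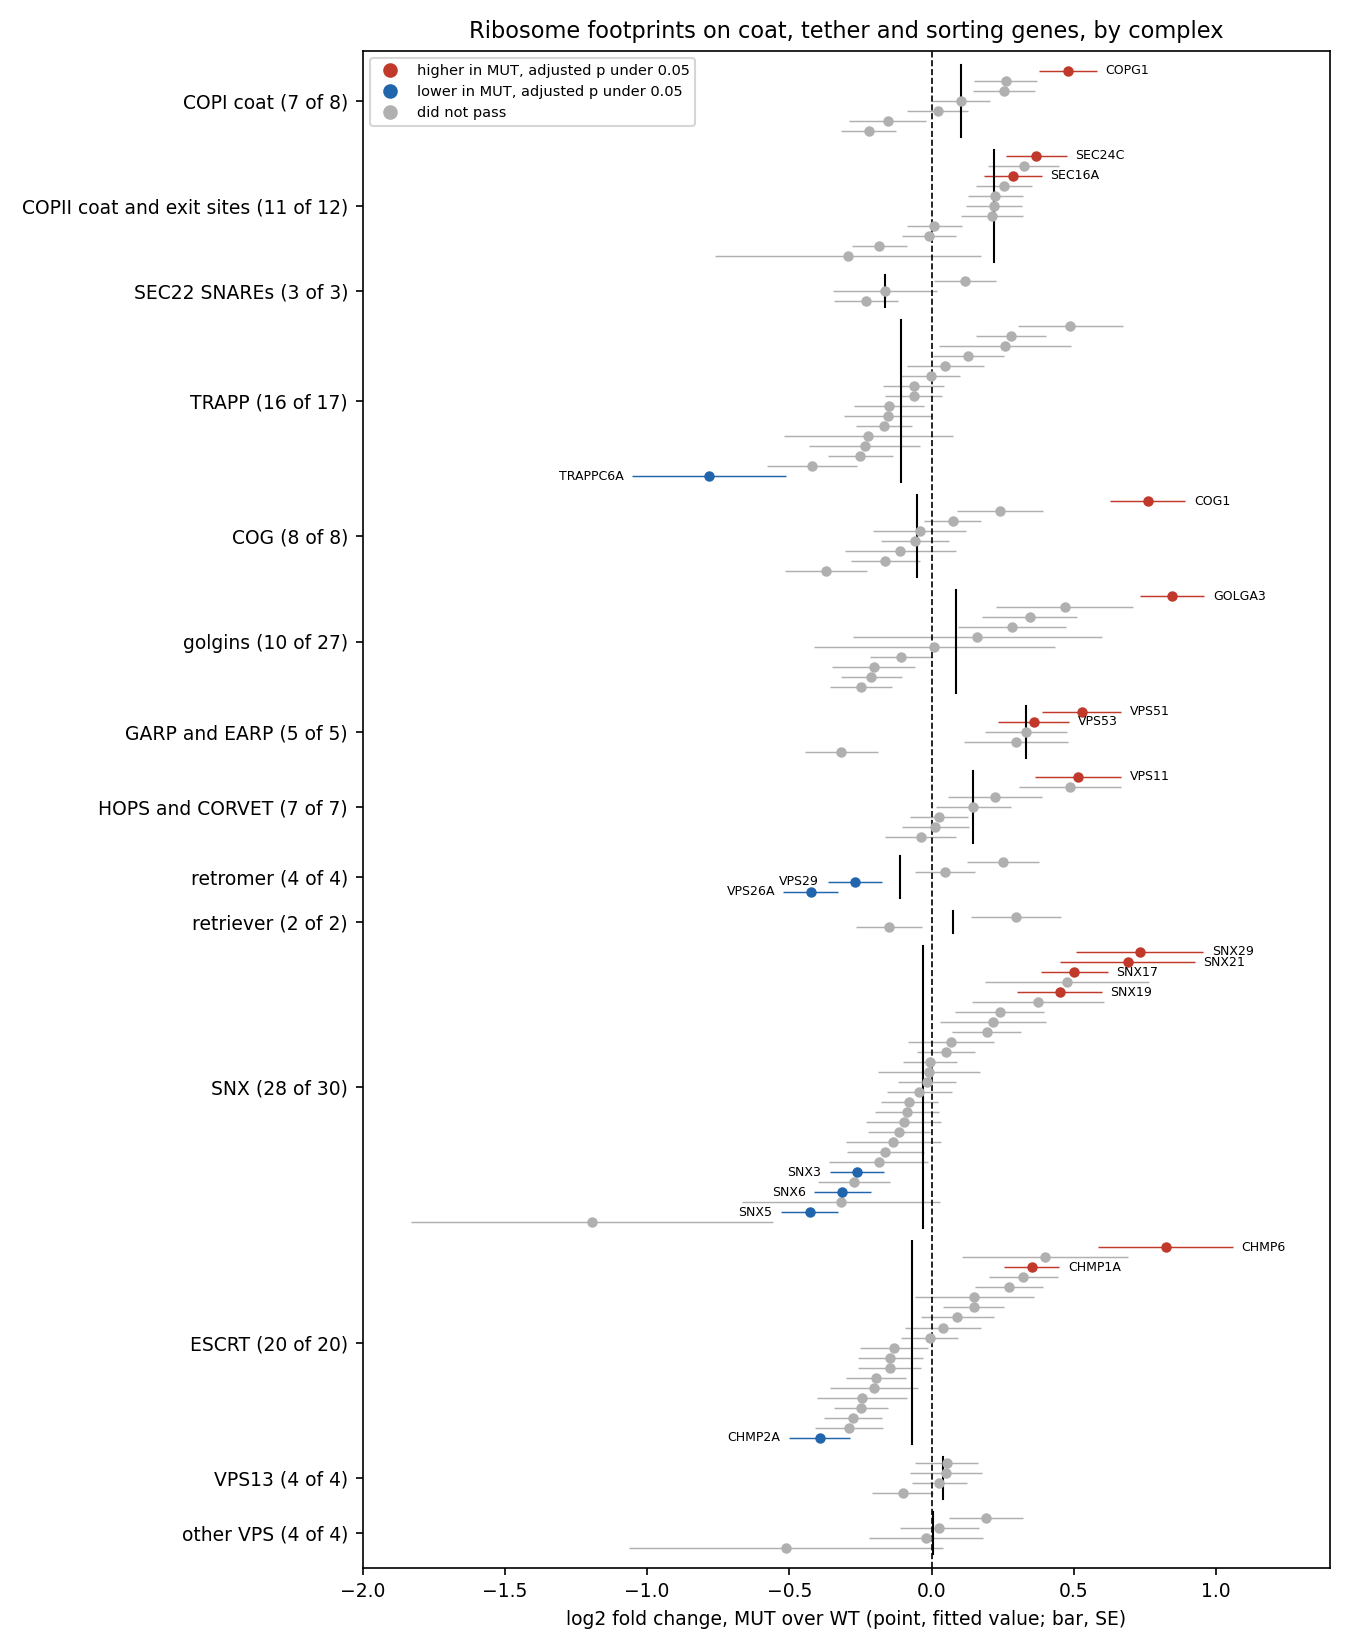
Log2 fold change (MUT over WT) of each of the 129 tested members, grouped by complex, with the standard error as a bar, the median of each complex as a black line and the median of all tested genes as a dashed line; labels give tested of listed members. The 14 members that rose are spread over 8 of the complexes, and retromer, SNX, TRAPP and ESCRT hold the 7 that fell.

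The COPI and COPII coats had 18 tested members, of which 3 (16.7%) rose in MUT, COPG1, SEC24C and SEC16A. Of all tested genes 10.0% rose. By limma-voom 2 of these coat genes were called higher, without SEC16A (adjusted p = 0.0558). By DESeq2 only COPG1 was, without SEC24C (adjusted p = 0.0534) and SEC16A (0.135). No coat gene was called lower in the main edgeR fit, by limma-voom or by DESeq2, while COPZ1 was called lower in 2 alternative edgeR fits. In the main fit 10 of the 18 had an unadjusted p under 0.05 in either direction, as did 35.8% of all tested genes. All MUT libraries lay above all WT libraries for 9 of the 18 and below for 2 (25.4% and 25.3% of all tested genes), and the median log2 fold change was 0.22. COPZ2 (23 counts over the 5 libraries) and SEC16B (14 counts) were too low to test.

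COPG1 (chr3:129249606-129277773), the gamma-1 subunit of coatomer, which contacts ARF1 and cargo, had 244, 276 and 228 CPM in MUT, against 170 and 186 CPM in WT. Every MUT library was above both WT libraries, and the log2 fold change was 0.48 (SE 0.102, adjusted p = 0.00159). Its paralog COPG2 had 79.5, 90.3 and 67.0 CPM in MUT, against 73.9 and 99.1 CPM in WT, with overlapping groups (log2 fold change -0.15, adjusted p = 0.434). The alpha and beta-prime subunits COPA and COPB2, which form the outer cage of COPI, averaged 188 ± 13.4 and 167 ± 17 CPM in MUT, against 156 ± 31 and 138 ± 22.5 CPM in WT. Neither passed (log2 fold changes of 0.25 and 0.26, adjusted p = 0.0962 and 0.0915). COPZ1, the zeta-1 subunit, leaned the other way, with 340, 322 and 336 CPM in MUT and 420 and 358 CPM in WT (log2 fold change -0.22, adjusted p = 0.0958). COPB1 and COPE, the beta and epsilon subunits, had log2 fold changes of 0.02 and 0.10 with overlapping groups, and the delta subunit gene ARCN1, outside the name rule, had -0.10 (adjusted p = 0.512). Within the coatomer, then, gamma-1 was the subunit that passed, with alpha and beta-prime at positive values short of the threshold and zeta-1 and delta at negative ones.

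SEC24C (chr10:73744372-73772161), one of the cargo-binding SEC24 subunits of the inner COPII coat, had 143, 152 and 128 CPM in MUT, against 100 and 116 CPM in WT. The MUT libraries were all above the WT ones, with a log2 fold change of 0.37 (SE 0.108, adjusted p = 0.0157). SEC24D, its closest paralog, had 75.7, 77.2 and 66.5 CPM in MUT and 56.4 and 59.8 CPM in WT, also without overlap (0.32, adjusted p = 0.0642). SEC24A had a log2 fold change of 0.21 (adjusted p = 0.161), and SEC24B, at 158 ± 2.5 CPM in MUT and 159 ± 6.48 CPM in WT, one of -0.01. SEC16A (chr9:136440105-136484740), the scaffold of ER exit sites, had 131, 141 and 142 CPM in MUT and 104 and 121 CPM in WT, a log2 fold change of 0.29 (SE 0.102, adjusted p = 0.0449). The lowest MUT library of SEC16A was above the higher WT library.

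No gene of the outer coat or the SEC23 subunits passed, and SEC23B came nearest to the threshold. SEC31A and SEC13, which form the outer cage, averaged 196 ± 9.15 and 220 ± 6.12 CPM in MUT, against 167 ± 13 and 190 ± 24.8 CPM in WT (log2 fold changes of 0.22 for both, adjusted p = 0.0956 and 0.109). SEC23B, a GTPase-activating subunit for SAR1, had 162, 159 and 160 CPM in MUT and 125 and 142 CPM in WT (0.26, adjusted p = 0.0605). Its paralog SEC23A lay on the other side, with 195, 190 and 195 CPM in MUT, below 240 and 201 CPM in WT (-0.18, adjusted p = 0.174). SEC23IP, which binds SEC23 at exit sites, averaged 247 ± 16.6 CPM in MUT and 245 ± 13 CPM in WT (0.01), and SEC31B had under 10 CPM in every library and a log2 fold change of -0.29 with overlapping groups.

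COPG1 kept its call in each of the 15 alternative fits. SEC24C did not pass without WT replicate 1 (adjusted p = 0.17), without MUT replicate 1 (0.0637) and without MUT replicate 2 (0.0582), and SEC16A lost it whichever library was left out (highest adjusted p = 0.303, without WT replicate 1). The count of 3 coat genes that rose depended on scaling: 9 rose when libraries were scaled by total counts alone and 8 with upper-quartile factors. Only COPG1 rose without MUT replicate 1 or MUT replicate 2, and without WT replicate 2 COPZ1 fell (log2 fold change -0.33).

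**Figure D2:**
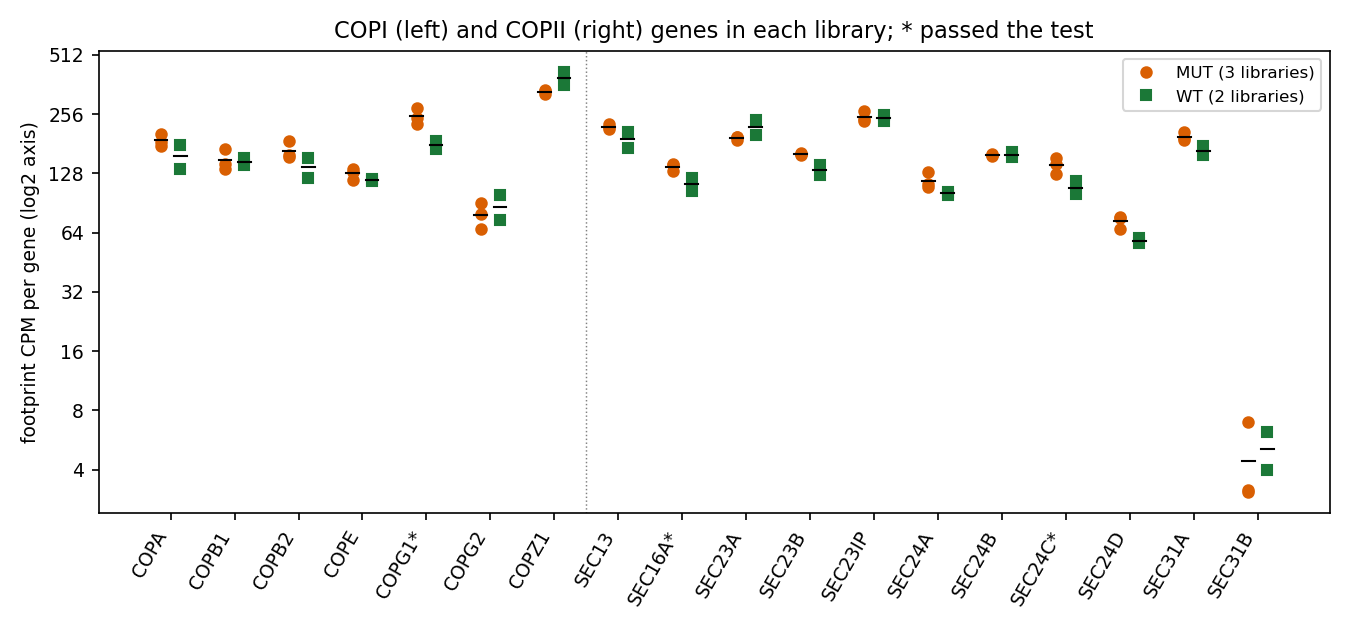
Footprint CPM (log2 axis) of the 18 tested coat genes in each library, with MUT libraries as circles left of WT libraries as squares and the group mean as a black line; levels of different genes are not comparable because they are not per length. COPG1, SEC16A and SEC24C, marked with an asterisk, have all MUT libraries above all WT libraries, and SEC23A and COPZ1 have them below.

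The SEC22 SNAREs and TRAPP act where COPII vesicles arrive. SEC22B, the R-SNARE that drives ER-Golgi fusion, had 98.9, 89.8 and 94.2 CPM in MUT and 89.4 and 84.7 CPM in WT (log2 fold change 0.12, adjusted p = 0.468). SEC22C and SEC22A had -0.23 and -0.16 (adjusted p = 0.145 and 0.556). Among the 16 tested TRAPP subunits, which assemble into exchange-factor complexes for RAB1 and RAB11, 1 passed the test (6.25%, against 22.9% of all tested genes). All MUT libraries lay below all WT libraries for 6 and above for 1, against 25.3% and 25.4% of all tested genes. The gene that passed, TRAPPC6A (chr19:45162933-45178237), one of a pair of alternative core subunits, had 8.27, 8.69 and 8.72 CPM in MUT and 14.0 and 15.4 CPM in WT. All MUT libraries were lower, with a log2 fold change of -0.78 (SE 0.270, adjusted p = 0.0386). Its counts were low and the call was lost whichever library was left out (highest adjusted p = 0.247, without WT replicate 2).

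Further TRAPP values split by subunit. TRAPPC11, specific to TRAPPIII, had 30.9, 35.5 and 29.0 CPM in MUT and 45.9 and 39.9 CPM in WT (log2 fold change -0.42, adjusted p = 0.0566). TRAPPC12, also of TRAPPIII, had 32.1, 41.6 and 41.3 CPM in MUT and 21.0 and 32.4 CPM in WT (0.49, adjusted p = 0.057), so its groups overlapped. TRAPPC10, a TRAPPII subunit, had a log2 fold change of 0.28 (adjusted p = 0.101), whereas the core subunits TRAPPC1, TRAPPC3 and TRAPPC4 had -0.00, -0.06 and -0.17. The median over TRAPP was -0.11. TRAPPC2 and TRAPPC2B are near-identical in coding sequence, so the division of footprints between them is uncertain; both groups overlapped, at -0.23 and -0.22.

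COG1 (chr17:73193055-73208507), a subunit of lobe A of the COG complex that tethers vesicles within the Golgi, had 68.1, 68.2 and 69.0 CPM in MUT, against 42.0 and 39.2 CPM in WT. The groups were far apart, with a log2 fold change of 0.76 (SE 0.132, adjusted p = 0.000263), and the call held in all 15 alternative fits. COG1 overlaps VCF1 on the genome, and without knowledge of strand its counts could include fragments of that gene. The 7 other COG subunits did not pass: COG6 and COG4 had the next lowest p, with 37.6 ± 3.40 and 42.4 ± 2.06 CPM in MUT, against 48.8 ± 0.160 and 35.5 ± 2.93 CPM in WT (-0.37 and 0.24, adjusted p = 0.0654 and 0.26). The lobe A subunits COG2 and COG3 were close to level (-0.06 and -0.04), and so was COG8 (0.07).

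GOLGA3 (chr12:132768914-132829081), the Golgi-associated coiled-coil protein also called golgin-160, gave the lowest adjusted p of all members. It had 134, 116 and 125 CPM in MUT, against 71.9 and 67.7 CPM in WT, so that every MUT library exceeded both WT libraries by a wide margin. The log2 fold change was 0.85 (SE 0.113, adjusted p = 1.33e-05) and the call held in all 15 alternative fits. GOLGA2 (GM130), a cis-Golgi tether, had 39.4, 50.8 and 38.2 CPM in MUT and 37.0 and 31.4 CPM in WT (0.34, adjusted p = 0.137). GOLGA5 (golgin-84) and GOLGA4 (golgin-245) had negative values, with 84.6 ± 4.48 and 280 ± 33.5 CPM in MUT, against 101 ± 7.48 and 323 ± 47.2 CPM in WT (-0.25 and -0.21, adjusted p = 0.105 and 0.156). Of the 27 GOLGA genes listed, 20 are primate-specific copies of the GOLGA6 and GOLGA8 families; 17 of these were too low to test, and GOLGA8A, GOLGA8B and GOLGA6L9 share sequence with near-identical copies, so their values (0.28, 0.47 and 0.01) are uncertain.

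The tethers of the endosome-to-Golgi and lysosomal routes had several genes on the higher side. GARP, which receives endosomal carriers at the trans-Golgi network, and EARP, which acts on recycling endosomes, share VPS51, VPS52 and VPS53. VPS51 (chr11:65096214-65111862) had 57.6, 62.1 and 54.9 CPM in MUT and 41.5 and 39.6 CPM in WT (log2 fold change 0.53, SE 0.138, adjusted p = 0.00779). VPS53 (chr17:508668-714839) had 77.0, 78.7 and 70.3 CPM in MUT and 63.4 and 54.9 CPM in WT (0.36, SE 0.125, adjusted p = 0.0399). VPS52, the other shared subunit, had 76.7, 64.5 and 54.9 CPM in MUT and 52.9 and 50.7 CPM in WT and did not pass (0.33, adjusted p = 0.0976). In each of these shared subunits all MUT libraries were above all WT libraries. VPS54, which defines GARP, had all MUT libraries below (47.7, 56.1 and 51.8 CPM in MUT, against 66.9 and 63.1 CPM in WT; -0.32, adjusted p = 0.077), and VPS50, which defines EARP, overlapped (0.30, adjusted p = 0.252). The VPS51 call was lost without WT replicate 2 (adjusted p = 0.097), and the VPS53 call without WT replicate 1 (0.0568), WT replicate 2 (0.334), MUT replicate 1 (0.115) or MUT replicate 2 (0.0982).

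VPS11 (chr11:119067818-119081972), a core subunit shared by the HOPS and CORVET tethers of lysosomes and early endosomes, had 59.5, 55.3 and 45.7 CPM in MUT and 36.0 and 38.3 CPM in WT. All MUT libraries were above WT, with a log2 fold change of 0.52 (SE 0.151, adjusted p = 0.016). VPS18, which pairs with VPS11 in the core, had 33.1, 36.3 and 29.8 CPM in MUT and 21.0 and 25.5 CPM in WT (0.49, adjusted p = 0.0518). The HOPS-specific VPS39 and VPS41 (0.15 and 0.03), the CORVET-specific VPS8 (-0.04) and the core subunits VPS16 and VPS33A (0.22 and 0.01) had overlapping groups. The VPS11 call was lost without either WT library (adjusted p = 0.105 and 0.0982) and without MUT replicate 1 (0.0867).

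In retromer, 2 of the 4 genes fell (12.9% of all tested genes did) and VPS26B lay on the opposite side. VPS26A (chr10:69124178-69174412), one of the alternative arrestin-like subunits, had 112, 112 and 115 CPM in MUT, against 147 and 156 CPM in WT. All MUT libraries were lower, with a log2 fold change of -0.42 (SE 0.0957, adjusted p = 0.00258). VPS29 (chr12:110491083-110502111), the subunit that binds the C-terminal part of VPS35, had 129, 134 and 128 CPM in MUT and 150 and 163 CPM in WT (-0.27, SE 0.0960, adjusted p = 0.0439). VPS35, the scaffold, had 152, 172 and 138 CPM in MUT and 137 and 159 CPM in WT, with overlapping groups (0.05, adjusted p = 0.786). VPS26B had 71.9, 63.7 and 74.9 CPM in MUT, above 56.4 and 60.8 CPM in WT (0.25, adjusted p = 0.154). Retriever, the related complex for retromer-independent recycling, had VPS35L at 0.30 and VPS26C at -0.15 (adjusted p = 0.183 and 0.381).

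The sorting nexins tied to retromer leaned the same way as VPS26A. SNX5 (chr20:17941600-17968794), a BAR-domain nexin of endosomal tubules that recognises the mannose 6-phosphate receptor, had 107, 113 and 105 CPM in MUT, against 133 and 156 CPM in WT (log2 fold change -0.43, SE 0.101, adjusted p = 0.00372). SNX6 (chr14:34561093-34630148), its close paralog, had 151, 160 and 148 CPM in MUT and 172 and 207 CPM in WT (-0.31, SE 0.0992, adjusted p = 0.0245). SNX3 (chr6:108211222-108261040), the retromer adaptor for Wntless and the transferrin receptor, had 225, 201 and 229 CPM in MUT and 274 and 250 CPM in WT (-0.26, SE 0.0955, adjusted p = 0.0491). For SNX5, SNX6 and SNX3 every MUT library was below both WT libraries. SNX1, SNX2 and SNX27, the BAR-domain partners of SNX5 and SNX6 and the PDZ-domain cargo adaptor, had overlapping groups (0.05, -0.08 and -0.01). Counting the 4 retromer genes with these 6 nexins, 5 of 10 fell, against 12.9% of all tested genes, and the median was -0.17. This grouping of 10 genes was made with earlier results of these data known, so its share is a description only.

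These calls were lost without WT replicate 2, a fit with a single WT library. Calls over all tested genes also became fewer in that fit. Without WT replicate 2, VPS26A had an adjusted p of 0.0607, SNX5 0.149, SNX6 0.419, VPS29 0.314 and SNX3 0.0835, so that none of the 5 passed in edgeR's quasi-likelihood test of the other 4 libraries, although each kept its negative sign. VPS29 also lost its call when any of the other libraries was left out, SNX3 without WT replicate 1 (0.218), MUT replicate 1 (0.109) or MUT replicate 2 (0.203), and SNX6 without MUT replicate 1 (0.0936) or MUT replicate 3 (0.0635). SNX5 overlaps MGME1 on the genome.

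The 28 tested sorting nexins together held 4 rises and 3 falls (25.0% called, against 22.9% of all tested genes), with a median log2 fold change of -0.03. Of the 22 not linked to retromer, 4 rose in MUT and 0 fell (18.2% called). SNX17 (chr2:27370616-27377535), the cargo adaptor of retriever that binds NPxY motifs, had 114, 134 and 116 CPM in MUT, against 75.4 and 93.8 CPM in WT (log2 fold change 0.50, SE 0.117, adjusted p = 0.00333). SNX19 (chr11:130866250-130916479), which anchors endolysosomes to the ER, had 58.8, 58.5 and 57.0 CPM in MUT and 33.5 and 49.4 CPM in WT (0.45, SE 0.149, adjusted p = 0.0304). SNX29 (chr16:11976734-12574287) and SNX21 (chr20:45833799-45843276) averaged 22.7 ± 2.85 and 19.5 ± 1.78 CPM in MUT, against 13.4 ± 1.34 and 12.4 ± 2.26 CPM in WT (0.73 and 0.69, adjusted p = 0.0197 and 0.0368). In all 4 the MUT libraries were above the WT ones. SNX17 did not pass without WT replicate 1 (adjusted p = 0.0821); SNX19 without WT replicate 1 (0.349) or MUT replicate 1 (0.0904); SNX29 without WT replicate 1 (0.114), WT replicate 2 (0.086) or MUT replicate 1 (0.0795); and SNX21 whichever library was left out (highest adjusted p = 0.314). SNX17 overlaps ZNF513 and SNX21 overlaps ACOT8, so their counts are less certain.

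**Figure D3:**
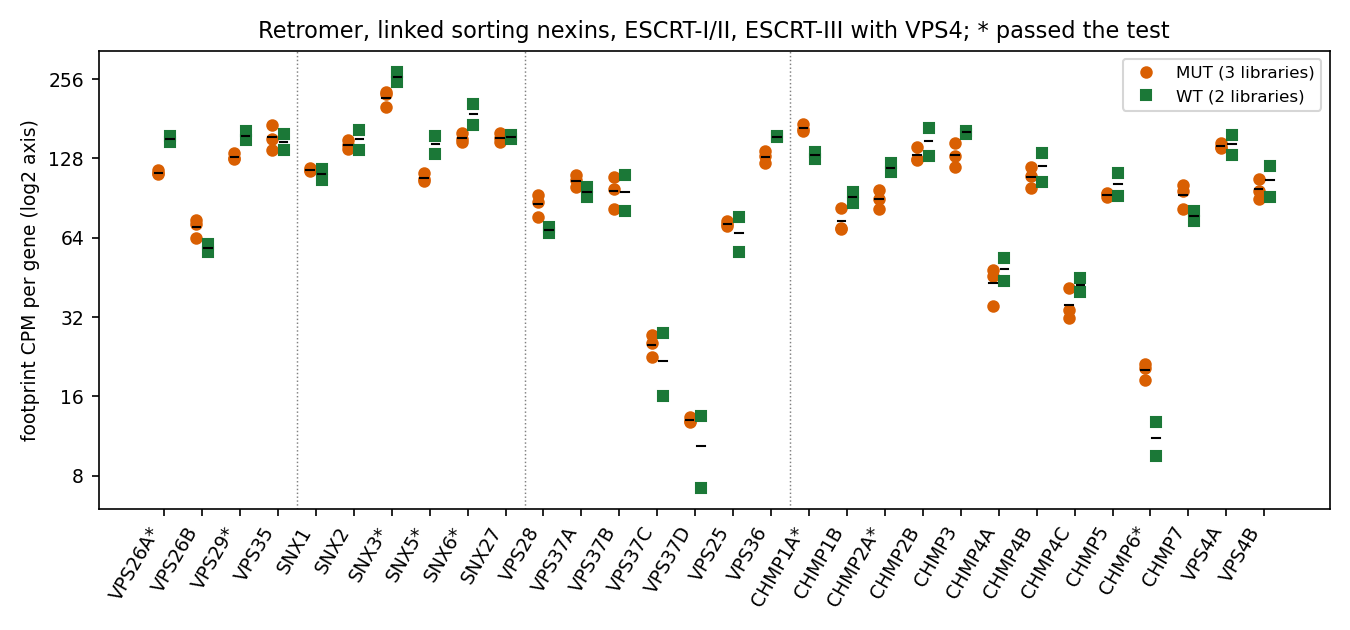
Footprint CPM (log2 axis) of retromer genes, retromer-linked sorting nexins, ESCRT-I and ESCRT-II, and ESCRT-III with VPS4, from left to right in each library, with MUT circles left of WT squares and group means as black lines. VPS26A, VPS29, SNX3, SNX5, SNX6 and CHMP2A, marked with an asterisk, lie lower in MUT, and CHMP1A and CHMP6 lie higher.

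Among the 20 ESCRT genes, 2 rose and 1 fell (15.0% called, against 22.9% of all tested genes), and the median log2 fold change was -0.07. All 3 belong to ESCRT-III, whose CHMP subunits polymerise into the filaments that cut membrane necks. CHMP6 (chr17:80991841-81000133), which receives the signal from ESCRT-II and starts the polymer, had 18.4, 20.5 and 21.3 CPM in MUT, against 9.49 and 12.8 CPM in WT (0.82, SE 0.237, adjusted p = 0.0143). CHMP1A (chr16:89644435-89657708), a late-acting regulatory subunit that recruits VPS4, had 166, 163 and 173 CPM in MUT and 135 and 128 CPM in WT (0.35, SE 0.0972, adjusted p = 0.0107). CHMP2A (chr19:58551566-58555105), a core subunit of the filament, had 97.3, 89.5 and 82.6 CPM in MUT and 123 and 113 CPM in WT (-0.39, SE 0.108, adjusted p = 0.0104). The groups of each of these genes did not overlap. The CHMP6 call was lost without WT replicate 1 (adjusted p = 0.115), the CHMP1A call without WT replicate 2 (0.111), and the CHMP2A call without either WT library (0.0878 and 0.0518).

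The other ESCRT-III subunits CHMP3 and CHMP1B lay lower in every MUT library without passing. CHMP3, the partner of CHMP2A in the filament, averaged 132 ± 14.1 CPM in MUT and 161 ± 3.58 CPM in WT (-0.27, adjusted p = 0.0531). CHMP1B, the paralog of CHMP1A, averaged 74.0 ± 7.78 CPM in MUT and 91.0 ± 6.18 CPM in WT (-0.29, adjusted p = 0.0798). CHMP7, which recruits ESCRT-III to the nuclear envelope, averaged 93.4 ± 10.1 CPM in MUT and 77.6 ± 4.73 CPM in WT (0.27, adjusted p = 0.102), and CHMP2B, CHMP4A, CHMP4B, CHMP4C and CHMP5 had overlapping groups at -0.25 to -0.14. In ESCRT-I, VPS28, a core subunit, had 76.7, 93.2 and 87.5 CPM in MUT and 66.9 and 70.3 CPM in WT (0.32, adjusted p = 0.0557), and VPS37A to VPS37D, its alternative subunits, had overlapping groups at 0.04 to 0.40. In ESCRT-II, VPS36, which binds ubiquitin and lipid, had 131, 123 and 136 CPM in MUT and 154 and 155 CPM in WT (-0.25, adjusted p = 0.0642), and VPS25 had 0.09. VPS4A and VPS4B, the ATPases that take ESCRT-III apart, were at -0.01 and -0.13 with overlapping groups.

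The VPS13 proteins, which move lipids between membranes at contact sites, gave values close to 0. VPS13A averaged 165 ± 10.2 CPM in MUT and 162 ± 8.19 CPM in WT (log2 fold change 0.03, adjusted p = 0.87), and VPS13D and VPS13B had -0.10 and 0.05 (adjusted p = 0.529 and 0.767). Of the VPS genes outside these complexes, VPS72, a subunit of chromatin complexes that deposit a histone variant, averaged 69.6 ± 4.39 CPM in MUT and 61.9 ± 9.89 CPM in WT (0.19, adjusted p = 0.304). VPS9D1 had under 5 CPM in every library (-0.51, adjusted p = 0.536). The groups of all 5 overlapped.

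Setting the coats against retromer and ESCRT, 3 of 18 tested coat genes rose (COPG1, SEC24C and SEC16A), whereas of the 24 retromer and ESCRT genes 2 rose (CHMP6 and CHMP1A) and 3 fell (VPS26A, VPS29 and CHMP2A). Without WT replicate 2, CHMP6 was the one of these 5 that passed, and without WT replicate 1 CHMP1A and VPS26A did. The coat share called in either direction, 16.7%, and that of retromer and ESCRT, 20.8%, were both under the 22.9% of all tested genes. By direction, 16.7% of coat genes rose, against 10.0% of all tested genes, and 0% fell, against 12.9%. In retromer and ESCRT 8.33% rose and 12.5% fell. The coat share in either direction passed that of all genes under other scalings. With library size only 9 of the 18 were called, against 23.3% of all tested genes, and 8 (44.4%) with upper-quartile factors, against 23.1%. The median log2 fold change was 0.22 over the coats and -0.07 over retromer and ESCRT. Coat genes took 0.300%, 0.310% and 0.288% of all counts in MUT, against 0.255% and 0.270% in WT, so that the 3 MUT libraries were above both WT libraries. All members together, coats included, also lay above, at 1.12%, 1.14% and 1.11% in MUT, against 1.03% and 1.08% in WT. Such shares use library size only. Retromer and ESCRT genes took 0.225%, 0.228% and 0.227% in MUT, against 0.218% and 0.233% in WT, with overlap. The ratio of coat counts to retromer and ESCRT counts was 1.33, 1.36 and 1.27 in MUT, against 1.17 and 1.16 in WT. These sums are descriptions and carry no test. Leaving out WT replicate 1 put the coat median at 0.11 and the retromer and ESCRT median at -0.16, and leaving out WT replicate 2 put the retromer and ESCRT median at 0.02.

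Several complexes hold alternative subunits encoded by paralogs, and the ratio within a library does not depend on library scaling. Of 13 pairs compared, 7 (53.8%) had ratios that did not overlap between the groups, a share near the 50.7% of single tested genes whose groups did not overlap, so the count itself is no result about the pairs. COPG1 over COPG2 had log2 ratios of 1.62, 1.61 and 1.77 in MUT, against 1.20 and 0.91 in WT. VPS26A over VPS26B had 0.64, 0.82 and 0.62 in MUT, against 1.38 and 1.36 in WT. CHMP1A over CHMP1B had 1.26, 0.97 and 1.32 in MUT, against 0.50 and 0.56 in WT. In the MUT libraries these ratios leaned toward COPG1, VPS26B and CHMP1A, with mean differences, MUT minus WT, of 0.61, -0.68 and 0.65 on the log2 scale. On the genome COPG2 overlaps MEST and TSGA13, VPS26B overlaps NCAPD3 and CHMP1B overlaps GNAL, so these ratios are less certain. SEC23A over SEC23B was lower by a difference of -0.45 (0.27, 0.26 and 0.29 in MUT, against 0.94 and 0.51 in WT), TRAPPC6A over TRAPPC6B by -0.61 and SNX5 over SNX6 by -0.12. Each of these 6 had the smallest p the exact two-sided permutation test of 3 against 2 libraries can give, 0.1 (adjusted p = 0.217 over the 13 pairs), so the design cannot place any of them under 0.05. SEC24A over SEC24B was higher by 0.21 (exact permutation p = 0.2, adjusted p = 0.371), and the ratios of SEC24C to SEC24D, SEC31A to SEC31B, VPS4A to VPS4B, CHMP2A to CHMP2B, CHMP4B to CHMP4C and SNX1 to SNX2 overlapped between the groups.

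**Figure D4:**
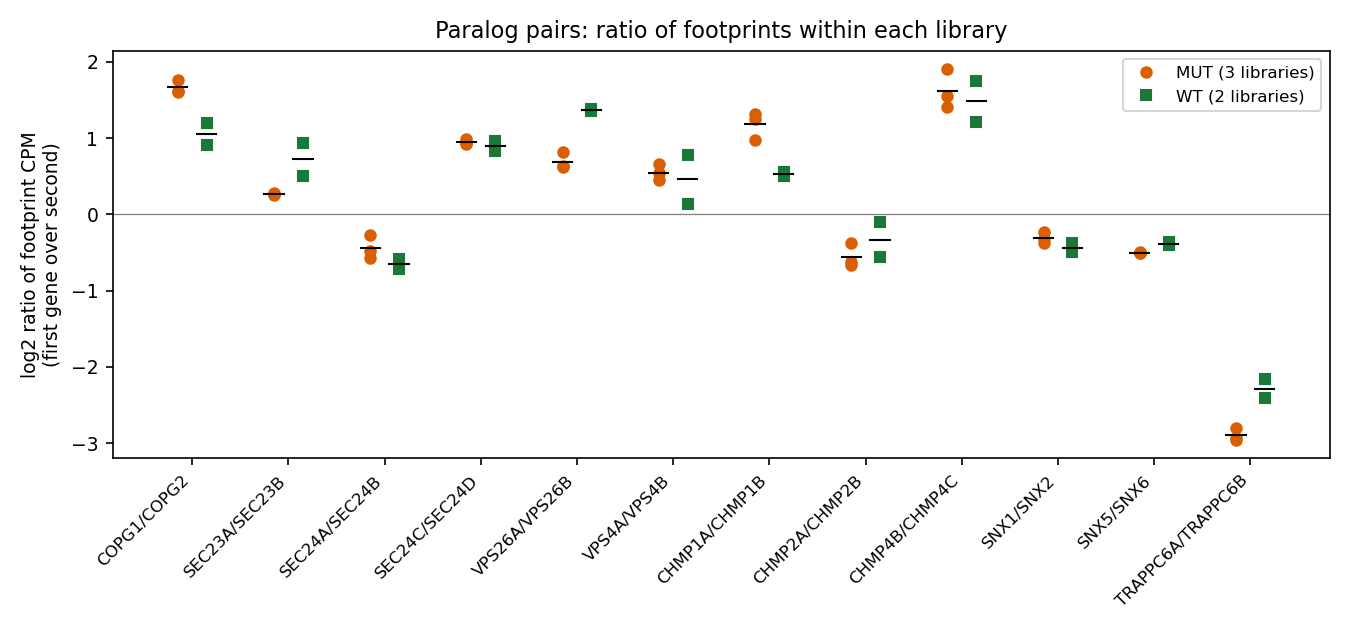
Log2 ratio of the footprint CPM of 12 paralog pairs (first gene over second) in each library, with MUT circles left of WT squares and group means as black lines; SEC31A over SEC31B, whose ratio lies far above the others, is left out. The MUT libraries lie above WT for COPG1/COPG2, CHMP1A/CHMP1B and SEC24A/SEC24B and below WT for SEC23A/SEC23B, VPS26A/VPS26B, TRAPPC6A/TRAPPC6B and SNX5/SNX6.

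Partner genes outside the name rule were counted from a pair of lists. Of 49 ER-Golgi transport genes, 10 rose and 7 fell (34.7%, against 22.9% of all tested genes), with a median log2 fold change of 0.05. Those that rose included the Golgi SNARE GOSR2 (176 ± 7.73 CPM in MUT and 127 ± 4.32 CPM in WT, 0.47, adjusted p = 0.00148), the ARF1 exchange factor GBF1 (132 ± 15.5 CPM in MUT and 94.1 ± 3.81 CPM in WT, 0.48, adjusted p = 0.00363) and the SAR1 exchange factor PREB (0.39, adjusted p = 0.0156). The ER exit site receptor MIA3 (TANGO1), the ERGIC-53 gene LMAN1 and the ALG2-binding partner PEF1 also rose (0.49, 0.36 and 0.45). Among those that fell were the tether USO1 (p115), with 192 ± 8.84 CPM in MUT and 253 ± 15.9 CPM in WT (-0.40, adjusted p = 0.00307), and the KDEL receptor KDELR1 (-0.37, adjusted p = 0.0192).

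The p24 cargo receptors, which ride both coats, split: TMED9 rose (65.3 ± 9.83 CPM in MUT and 41.8 ± 0.513 CPM in WT, log2 fold change 0.64, adjusted p = 0.00309), and TMED2, TMED5 and TMED10 fell (-0.44, -0.40 and -0.27, adjusted p = 0.00281, 0.0144 and 0.0414). The lectin receptors LMAN2 and LMAN1 rose (0.58 and 0.36), and MCFD2, the cofactor of LMAN1, fell (-0.44, adjusted p = 0.0143). Without WT replicate 2, TMED9 (adjusted p = 0.0566), USO1 (0.069), PEF1 (0.172), PREB (0.172) and MIA3 (0.177) did not pass. Without WT replicate 1, LMAN2 (0.0682), KDELR1 (0.172), MCFD2 (0.119) and TMED5 (0.132) did not. GOSR2 and TMED2 kept theirs in all 15 alternative fits. Each of the other called genes named from this list lost its call in at least 1 of these fits, among them TMED10 and LMAN1 without WT replicate 2 (0.197 and 0.139).

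Of 42 tested genes on the endosomal sorting list, 3 rose and 2 fell (11.9%, against 22.9% of all tested genes), with a median of 0.01. The ones that rose were PTPN23 (HD-PTP), an ESCRT scaffold, at 88.8 ± 6.79 CPM in MUT and 64.8 ± 2.93 CPM in WT (0.46, adjusted p = 0.00803), HGS, the ESCRT-0 subunit that binds ubiquitinated cargo (0.33, adjusted p = 0.039), and MVB12A, an ESCRT-I subunit (0.37, adjusted p = 0.0404). COMMD10 and COMMD8, subunits of the COMMD ring that binds retriever in the Commander complex, fell. COMMD10 had 66.6 ± 3.95 CPM in MUT and 104 ± 9.28 CPM in WT (-0.65, adjusted p = 0.00027) and kept its call in all 15 alternative fits, and COMMD8 had -0.40 (adjusted p = 0.0302), lost without WT replicate 2 (0.579). TSG101, the ESCRT-I core gene, had -0.19 (adjusted p = 0.282). PTPN23 and HGS lost their calls without WT replicate 2 (0.114 and 0.451), and MVB12A lost its call in 8 of the 15 fits, among them those without WT replicate 1 (0.171), WT replicate 2 (0.136), MUT replicate 1 (0.0829) or MUT replicate 3 (0.117).

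Members in gene-dense regions tended to have higher fold changes. Across the 129 tested members, Spearman's rho between log2 fold change and the number of protein-coding gene starts within 500 kb on each side was 0.28, and it was 0.27 across 11976 tested genes, which share the same 5 libraries. The 14 members that rose had a median of 19.5 such neighbours and the 7 that fell 14, against 12 over all tested members and 12 over all tested genes. With the trend in density and gene span removed, 9 of the 21 calls were lost: VPS51 (adjusted p = 0.106), VPS53 (0.197), VPS11 (0.0927), SNX17 (0.0538), SNX21 (0.13), CHMP1A (0.117), SEC16A (0.456), SNX3 (0.264) and SNX6 (0.0715). GOLGA3, COG1, COPG1, SEC24C, CHMP6, SNX29 and SNX19 stayed called higher and SNX5, VPS26A, CHMP2A, VPS29 and TRAPPC6A lower. The coat median was 0.13 with the trend removed, against 0.22 with it, and the retromer and ESCRT median was -0.07 in both.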

How the data were processed

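The authors deposited raw counts of ribosome-protected fragments per gene, whole numbers not normalized, for 5 libraries. The submitters' processing notes name STAR 2.5.2b, cutadapt 4.6, DESeq2 1.42.0 and FastQC 0.12.1, with hg38 as build. Not given in the sources used here are the counting tool, the annotation, how multiply mapping reads were treated and whether strand was used. The RNA-seq part of the study was not analysed here.

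The counts were fitted with edgeR 4.0.16 in R 4.3.3 (filterByExpr with minimum count 10 and total 15, TMM factors from 0.959 to 1.03, quasi-likelihood test, 3 residual degrees of freedom). The fit covered all 11991 tested genes and p-values were adjusted by Benjamini-Hochberg. Simulated counts with known changes were used to test the fit. CPM means are given with SD over 3 MUT and 2 WT libraries, and log2 fold changes are MUT over WT. The common coefficient of variation was 7.37%. The labels state no covariate, so the fit had no block. Deviations from the group mean had r = 0.0886 and 0.201 for same-numbered libraries of MUT and WT (10275 genes). MUT replicate 3 with WT replicate 1 had 0.108. Deviations of the 2 WT libraries mirror each other, so these values cannot settle whether libraries were paired. Alternatives were other scalings, filters, a replicate block, each library left out, removed trends in gene density and promoter GC content, limma-voom (limma 3.58.1) and DESeq2 1.42.0. Gene names were matched to NCBI's GRCh38.p14 table (17077 by symbol, 176 by an older symbol, 44 unmatched).

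Members, classes and lists were chosen with earlier results of these data known. The text names, in each complex, up to 4 passing members with the lowest p (2 where none passed), the member with the highest mean CPM, all COPI, COPII and retromer members, paralog pairs and the 4 largest rises and falls; members named beyond these, list genes among them, were chosen after their values were seen.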

Additional observations from a re-analysis of the deposited data

How the results depend on the processing

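Of the 21 called members, COG1, COPG1 and GOLGA3 passed in all 15 alternative fits and 18 lost the call in at least 1; no named gene changed sign while called, and 25 other members passed in at least 1 alternative. Scaling moved the split of member calls: 14 higher and 7 lower (66.7% higher) became 22 and 4 (84.6%) with upper-quartile factors and 26 and 3 (89.7%) with library size only. Coat genes called higher, 3, became 8 and 9 with those scalings, 5 with the strict filter, 1 with DESeq2 and 10 with the replicate block; 1 coat gene (COPZ1) was lower without the density and span trend. Retromer and ESCRT genes called higher, 2, became 4 with library size only, 1 without the density and span trend and 1 with DESeq2. With the promoter GC trend removed, 11 members were lower. DESeq2 called 6 members higher and 3 lower, and 610 and 953 of all genes. With DESeq2 12 of the 21 calls were lost. They were those of SEC24C, SEC16A, CHMP6, SNX3, SNX6, SNX19, SNX21, SNX29, TRAPPC6A, VPS11, VPS29 and VPS53. With the replicate number as a block (shared only as a number, 1 residual degree of freedom) 27 members were higher and 11 lower, and 4 and 5 retromer and ESCRT genes; 55.6% of coat genes were then called, against 28.7% of all tested genes. Over fits that left out 1 library, members higher ran from 6 to 16 and lower from 1 to 6, coat genes higher from 1 to 4 and lower from 0 to 1, retromer and ESCRT genes higher from 1 to 3 and lower from 0 to 3, and all genes higher from 509 to 1089 and lower from 732 to 1339. The paralog differences ran from 0.47 to 0.75 (COPG1/COPG2), -0.67 to -0.24 (SEC23A/SEC23B), -0.0127 to 0.12 (SEC24C/SEC24D), -0.23 to 0.41 (VPS4A/VPS4B), -0.46 to 0.0093 (CHMP2A/CHMP2B), -0.14 to -0.10 (SNX5/SNX6) and -0.74 to -0.49 (TRAPPC6A/TRAPPC6B). The cause of these moves was not tested. With 2 WT libraries, the smaller holding 2095217 counts, calls near the threshold and genes of low count such as TRAPPC6A, CHMP6 and SNX21 are the least certain; called members that overlap another protein-coding gene number 4 of 21.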
